A study of Homo sapiens with 2 samples.

Results

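The genes described here are 10 regulators and markers of the epithelial-mesenchymal transition (EMT), taken from the gene table by their symbols: VIM, FN1, SNAI1, SNAI2, ZEB1, ZEB2, TWIST1, GRHL2, ESRP1 and ESRP2. All 10 are among the 58735 genes of the table. They are named as mesenchymal markers and EMT transcription factors, but GRHL2, ESRP1 and ESRP2 are epithelial factors, and the ESRP proteins regulate splicing rather than transcription. RNA was sequenced from PLC8024 (PLC/PRF/5) cells, an established hepatocellular carcinoma (HCC) line of epithelial morphology that the labels also call Alexander cells. The groups are 1 library of non-treated wild-type cells (MAEL WT) and 1 library of cells with MAEL knocked out by CRISPR-Cas9 with an sgRNA (MAEL KO). The knockout cells were grown from sorted single cells, so the knockout and the history of a clone cannot be told apart. With 1 library per group there is no replicate check and no test between groups, and every interval below covers counting error only.

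EMT is the process in which epithelial cells lose junctions and apical-basal polarity and take on a motile, mesenchymal state. SNAI, ZEB and TWIST proteins drive it, in large part by binding E-box sequences and repressing CDH1, the gene of E-cadherin. GRHL2 and the ESRP proteins hold the epithelial state, GRHL2 by activating epithelial genes in mutual opposition with ZEB1, and the ESRP proteins by selecting epithelial splice forms. In liver, fibronectin is also a normal secreted product of hepatocytes, so FN1 is less specific to mesenchymal cells there than VIM.

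The promoter windows of FN1, VIM and ZEB1 are shown first. These are the members with at least 10 counts in a library for which RefSeq gave a window on GRCh38.p14. RefSeq windows were matched for 4 of the 10 members, and the fourth, ZEB2, had 7 and 3 counts. The ZEB2 window also overlaps annotated untranslated regions. Capitals mark CAGGTG, which with its reverse complement CACCTG is the E-box bound by SNAI and ZEB proteins, and TGACGTCA, the cyclic AMP response element. The second motif was chosen after the FN1 window had been read. The FN1 window lies at chr2:215436173-215436318 on the minus strand, without the bases annotated as transcribed. The VIM window lies at chr10:17227991-17228240 and the ZEB1 window at chr10:31318167-31318416, both on the plus strand.
FN1: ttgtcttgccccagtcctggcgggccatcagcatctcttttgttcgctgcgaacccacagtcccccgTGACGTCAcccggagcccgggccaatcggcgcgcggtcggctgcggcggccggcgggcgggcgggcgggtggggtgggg
VIM: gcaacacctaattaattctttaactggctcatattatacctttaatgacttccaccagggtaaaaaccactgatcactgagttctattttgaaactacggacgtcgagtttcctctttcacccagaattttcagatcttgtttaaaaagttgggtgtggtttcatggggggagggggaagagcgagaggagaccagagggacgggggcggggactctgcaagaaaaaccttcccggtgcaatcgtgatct
ZEB1: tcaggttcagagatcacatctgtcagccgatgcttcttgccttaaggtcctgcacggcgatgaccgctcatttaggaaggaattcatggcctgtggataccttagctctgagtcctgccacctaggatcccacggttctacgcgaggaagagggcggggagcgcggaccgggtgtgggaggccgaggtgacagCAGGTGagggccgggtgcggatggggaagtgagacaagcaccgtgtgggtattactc

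The E-box was found once in the ZEB1 window shown, 57 bases before the RefSeq start, and not in the FN1 or VIM window. ZEB1 has 7 RefSeq windows, of which the most upstream is shown, and 2 of the 7 held the E-box. Over the 250 bases before each start, 17.5% of 35116 RefSeq windows held it on either strand. The cyclic AMP response element stood 183 bases before the FN1 start, and 1.65% of windows held it. GC content over the 250 bases was 76.4% for FN1, 59.2% for ZEB1 and 46.0% for VIM, beside a median of 58.0% for all windows. The VIM window lies inside the antisense gene VIM-AS1 and the ZEB1 window inside ZEB1-AS1. GENCODE 29 gives VIM 9, FN1 20 and ZEB1 22 distinct transcript starts, so each window is only 1 of several.

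Total counts were 19904136 in MAEL WT and 20833332 in MAEL KO. The targeted gene, MAEL, had 1 and 0 counts, which is too few to check the labels with. Hepatocyte markers were present in both libraries, and all 8 were higher in MAEL KO, from TF at a log2 fold change of 0.36 to ALB at 7.36. The 4 epithelial markers were KRT8, KRT18 and CDH1, each with at least 1400 counts in both libraries, and EPCAM with 15 and 0. Of 8 fibroblast markers, 3 reached 10 counts in a library (among them COL1A1 and COL3A1, which the mesenchymal list below also holds), and the summed level of the list was 14.1 CPM in MAEL WT and 8.50 CPM in MAEL KO. DCN and LUM had 3 and 0 counts and PDGFRA none in either library. The 4 endothelial markers summed to 17.8 and 19.5 CPM, of which PECAM1 made up nearly all, and the 5 leukocyte markers to 63.6 and 35.9 CPM, mostly LYZ. PTPRC, which defines leukocytes, had 3 and 0 counts. The part of these shifts in the values below was not tested, and in bulk RNA fewer cells of a type and less RNA per cell cannot be told apart.

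The members fell into 2 tiers of abundance. FN1, ESRP2, VIM, ZEB1 and SNAI1 had over 100 counts in both libraries, whereas ESRP1 had at most 10, ZEB2 at most 7, and SNAI2, TWIST1 and GRHL2 at most 2. By deposited FPKM, which takes gene length into account, the order in MAEL WT was FN1 at 199.95, ESRP2 at 9.62, VIM at 3.04, SNAI1 at 2.77 and ZEB1 at 1.72. In MAEL KO the order was the same, with FPKM of 171, 17.0, 3.76, 3.16 and 1.03. The other 5 members stayed under 0.1 FPKM in both libraries.

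**Figure D1:**
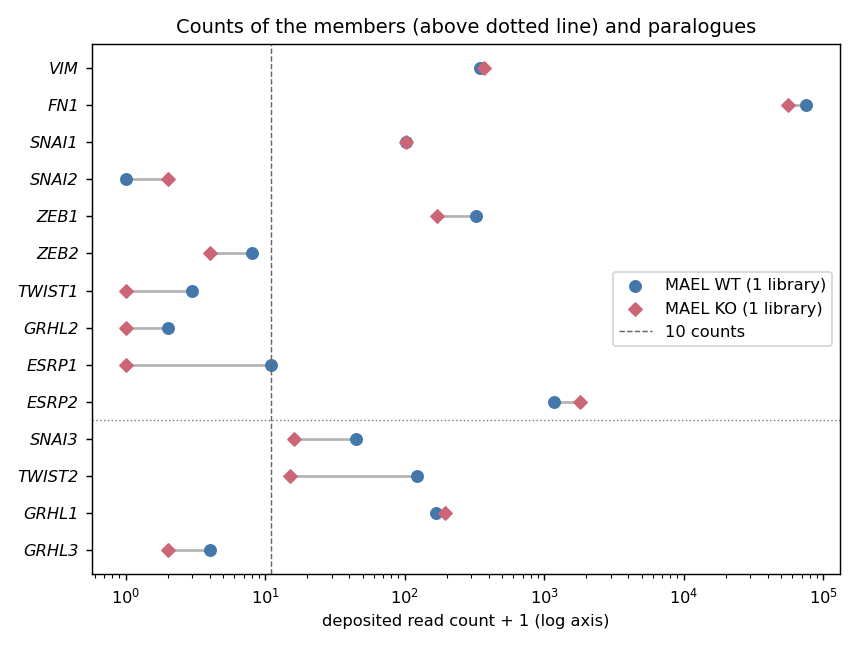
Deposited read count plus 1 on a log axis for the 10 members, above the dotted line, and 4 paralogues, below it, with 1 point per library. FN1, ESRP2, VIM, ZEB1 and SNAI1 lie to the right of the 10-count line in both libraries, ESRP1 reaches it in MAEL WT alone, and TWIST2 shows the widest gap among the paralogues, from 122 to 14 counts.

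Log2 fold changes, MAEL KO over MAEL WT and so negative where MAEL KO was lower, were computed from TMM-normalized counts with 1 added for the 6 members with at least 10 counts in a library. The 4 others, SNAI2, ZEB2, TWIST1 and GRHL2, were too low. Of the 6 members, 0 passed a log2 fold change of 2 upwards, against 2.16% of the 17887 genes with as many counts, and 1, ESRP1, passed -2, against 5.64%. In either direction 7.8% of all genes passed. At a threshold of 1 the members gave the same counts, 0 higher and 1 lower, against 10.2% and 16.5% of all genes. The 95% counting interval lay above 0 for 2 members, VIM and ESRP2, against 34.8% of all genes, and below 0 for 3, FN1, ZEB1 and ESRP1, against 34.7%. The median over the 6 members was -0.01, beside -0.04 over all genes tested.

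VIM encodes vimentin, the intermediate filament protein used most often to mark mesenchymal cells. Its GRCh38 position is chromosome 10, 17228259 to 17237593, plus strand, with 10 annotated transcripts. VIM had 343 counts in MAEL WT and 368 in MAEL KO, or 0.31 on the log2 scale (95% interval 0.10 to 0.53). MAEL KO was slightly the higher library, and the difference depended on scaling. Scaled by total counts instead, the value was 0.04 (interval -0.18 to 0.25), and this scaling moved the median of all genes from -0.04 to -0.31. Vimentin mRNA stood near the middle of the expressed genes, above 47.0% of them by FPKM in MAEL WT and 52.1% in MAEL KO. VIM-AS1, which overlaps VIM on the opposite strand over 1727 bases, had 9 and 2 counts.

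FN1 encodes fibronectin, a matrix glycoprotein that binds integrins. It occupies chromosome 2, 215360440 to 215436172, minus strand, with 27 annotated transcripts of up to 47 exons. It had 75727 counts in MAEL WT, which made it gene 11 of the table by counts, and 56185 in MAEL KO, where it was gene 22. These counts were 0.380% of the MAEL WT library (95% Clopper-Pearson interval 0.378% to 0.383%) and 0.270% of the MAEL KO library (0.267% to 0.272%). The log2 fold change was -0.22 (interval -0.24 to -0.20), or 0.858 times the MAEL WT level, and with total counts it was -0.50. FN1 was thus the lower in MAEL KO under either scaling, by an amount small beside the threshold. The table holds 1 count per gene, so the splice forms of fibronectin were not analysed here.

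The relation of these genes to each other does not depend on the scaling between libraries. Per count of VIM there were 221 counts of FN1 in MAEL WT and 153 in MAEL KO, and the second ratio was 0.692 times the first (exact conditional 95% interval 0.595 to 0.804). Vimentin against keratin 18, a filament protein of simple epithelia, shifted less. The VIM to KRT18 ratio in MAEL KO was 0.934 times that in MAEL WT, with an interval of 0.802 to 1.09 that includes no change. KRT18 itself had 8981 and 10320 counts, and has many processed pseudogenes with which its reads could be shared.

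SNAI1, a zinc finger repressor of CDH1 often placed at the start of EMT, occupies chromosome 20, 49982999 to 49988886, plus strand. There were 102 counts in MAEL WT and 101 in MAEL KO, and the log2 fold change of 0.19 had an interval of -0.22 to 0.61. The libraries were not told apart by SNAI1 at this depth, and with total counts the sign turned, at -0.08. SNAI2, its paralogue Slug, had 0 counts in MAEL WT, where the floor of 3 counts is 0.151 CPM, and 1 count in MAEL KO. SNAI3, the least studied of the family, had 44 and 15 counts, or -1.29 on the log2 scale (interval -2.29 to -0.47). Its antisense neighbour SNAI3-AS1, which spans all 8812 bases of SNAI3, had 120 and 57 counts. The SNAI3 to SNAI3-AS1 ratio in MAEL KO was 0.719 times that in MAEL WT (interval 0.342 to 1.45). Whether counting used strand is not given in the sources used here, so reads of these overlapping pairs cannot be assigned with certainty.

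ZEB1, a zinc finger and homeodomain repressor of epithelial genes, was the EMT factor among the members with the clearest difference. It occupies chromosome 10, 31318495 to 31529814, plus strand. ZEB1 had 325 counts in MAEL WT and 169 in MAEL KO, 0.602 times the MAEL WT level, or -0.73 on the log2 scale (interval -1.01 to -0.46). With total counts the interval was -1.29 to -0.74. Of all genes tested, 22.4% had a log2 fold change at or below that of ZEB1, so the difference was not unusual for these libraries. ZEB1-AS1, which starts at the same locus on the opposite strand and overlaps ZEB1 by 1953 bases, had 107 and 66 counts, a log2 fold change of -0.48. The ZEB1 to ZEB1-AS1 ratio in MAEL KO was 0.843 times that in MAEL WT (interval 0.581 to 1.23), so no unequal change of this pair was detectable. This pair was chosen for a ratio after the counts had been seen.

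ZEB2, the paralogue of ZEB1, had 7 counts in MAEL WT and 3 in MAEL KO, and the second level was 0.496 times the first with a log2 interval of -3.60 to 1.12. Its processed pseudogene ZEB2P1 had 7 and 1 counts, and reads may be shared between the copies. The ZEB2 to ZEB1 ratio in MAEL KO was 0.824 times that in MAEL WT (interval 0.136 to 3.67). By deposited FPKM, ZEB2 was at 0.00744 times ZEB1 in MAEL WT and 0.00613 times in MAEL KO. ZEB1 was thus the predominant ZEB transcript in both libraries.

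TWIST1, a helix-loop-helix factor of mesoderm and EMT, had 2 counts in MAEL WT and 0 in MAEL KO, where the floor of 3 counts is 0.144 CPM. No fold is given, since both libraries were at or under 3 counts. Its paralogue TWIST2, which is not a member, was counted more often and differed strongly, with 122 counts in MAEL WT and 14 in MAEL KO. On the log2 scale TWIST2 was at -2.83 (interval -3.83 to -2.11), past the threshold. Per count of SNAI1, the TWIST2 counts in MAEL KO were 0.117 times those in MAEL WT (interval 0.0579 to 0.220), a pair also chosen after the counts had been seen. In MAEL WT, TWIST2 and SNAI1 stood at 2.97 and 2.77 FPKM, and in MAEL KO at 0.393 and 3.16.

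**Figure D2:**
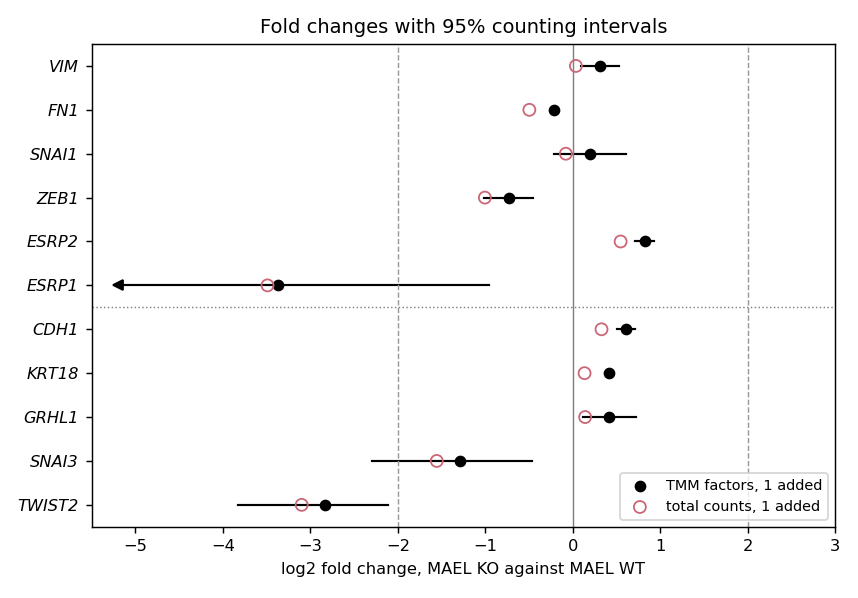
Log2 fold change (MAEL KO over MAEL WT) for the 6 members with enough counts, above the dotted line, and 5 related genes, below it; filled points use TMM factors, lines are 95% counting intervals, open circles use total counts, dashed lines mark -2 and 2, and the arrow marks an interval without a lower end. VIM, FN1, SNAI1, ZEB1 and ESRP2 lie between -0.73 and 0.82, and ESRP1 and TWIST2 lie past -2.

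GRHL2, a grainyhead factor that activates CDH1 and other junction genes, had 1 count in MAEL WT and 0 in MAEL KO. Both are under the floor of 3 counts, so GRHL2 was not detectable at this depth. Its paralogue GRHL1 was present, with 168 and 194 counts, or 0.42 on the log2 scale (interval 0.11 to 0.73). With total counts it was at 0.14, with an interval of -0.16 to 0.45 that includes 0. GRHL3 had 3 counts and 1. The grainyhead transcripts of both libraries were therefore counted almost all at GRHL1, which stood at 0.966 and 1.29 FPKM.

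The ESRP genes encode epithelial splicing regulatory proteins, RNA-binding proteins that promote epithelial exon choice. ESRP2, at chromosome 16, 68229111 to 68238102, minus strand, had 1171 counts in MAEL WT and 1791 in MAEL KO. Its log2 fold change of 0.82 (interval 0.72 to 0.93), or 1.77-fold, was the largest increase among the members, and it was 0.55 with total counts. ESRP2 overlaps NFATC3 on the opposite strand by 149 bases, and NFATC3 had 423 and 371 counts, a log2 fold change of 0.02. ESRP1 had 10 counts in MAEL WT and 0 in MAEL KO. Taking 3 counts for the 0, its MAEL KO level was 2.88-fold lower, and the end of its interval nearest to 0 was -0.95 on the log2 scale. Its place past the threshold, at -3.37, depends on the added count, since taking 3 counts for the 0 gives -1.53, short of -2. With 5 added the value was -1.52. In MAEL WT, ESRP2 had 103 times the FPKM of ESRP1, so ESRP2 was the predominant ESRP transcript of the line. The ESRP2 to ESRP1 count ratio was higher in MAEL KO, with 3.42 as the lower end of the interval for its factor and no upper end.

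The adhesion genes that these factors are known to control were read beside them. CDH1, E-cadherin, had 1400 counts in MAEL WT and 1840 in MAEL KO, or 0.60 on the log2 scale (interval 0.50 to 0.71) and 0.33 with total counts. CDH2, N-cadherin, the cadherin gained in EMT, had 7 and 6 counts. E-cadherin transcripts thus far outnumbered those of N-cadherin in both libraries, and the CDH2 to CDH1 ratio in MAEL KO was 0.652 times that in MAEL WT with an interval of 0.181 to 2.27. EPCAM, an epithelial surface protein, went from 15 to 0 counts, opposite in direction to CDH1. With 3 counts taken for the 0, EPCAM was 4.32-fold lower in MAEL KO (interval limit -1.63). MIR200CHG, listed by name as a host gene of a microRNA family that targets ZEB transcripts, had 0 and 1 counts.

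**Figure D3:**
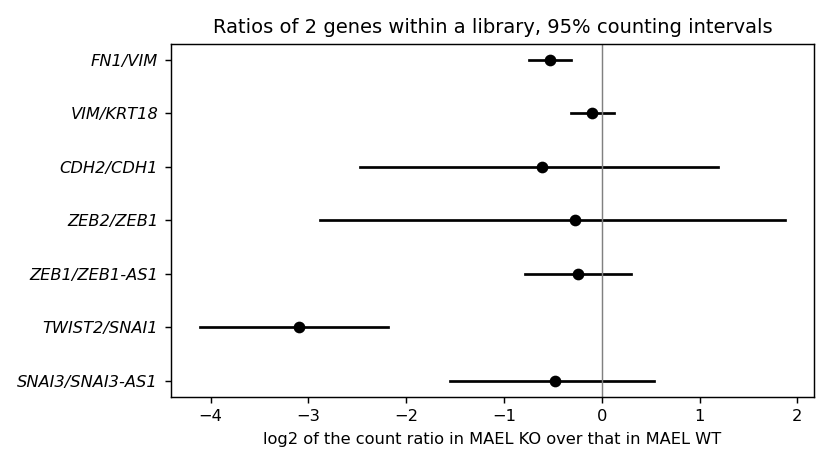
Log2 of the count ratio of 2 genes in MAEL KO over the same ratio in MAEL WT, with exact conditional 95% counting intervals, which do not depend on scaling between libraries. FN1/VIM and TWIST2/SNAI1 lie below 0 with their whole intervals, whereas the intervals of VIM/KRT18, CDH2/CDH1, ZEB2/ZEB1, ZEB1/ZEB1-AS1 and SNAI3/SNAI3-AS1 include 0.

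Other mesenchymal genes ranged from -4.22 to 1.61 on the log2 scale. Of 38 listed, 25 had enough counts. Upwards 0 passed 2, beside 2.16% of all genes, and 5 passed -2, or 20.0% beside 5.64% of all genes. The list was chosen with earlier results of these data known, and the difference between these shares was not tested. The 5 were VCAN (versican) at -4.22, S100A4 at -4.15, COL6A3 at -2.82, COL6A2 at -2.78 and COL1A1 at -2.75. Their counts in MAEL WT and MAEL KO were 256 and 11 for VCAN, 59 and 2 for S100A4, 31 and 3 for COL6A3, 905 and 113 for COL6A2, and 92 and 11 for COL1A1. At the other end LOX, a collagen crosslinking enzyme, was at 1.61 with 168 and 444 counts, COL3A1 at 1.52 and COL5A2 at 0.70. The list was thus mixed, with 16 genes below 0 and 9 above, and a median of -0.51. Of all genes tested, 9294 were below 0 and 8593 above. The intervals of 5 of the 25 included 0, among them MYL9 at 0.07. The intervals were -7.75 to -2.76 for S100A4 and -5.51 to -1.48 for COL6A3. Except for COL6A2 and VCAN, the 5 genes past -2 had under 100 counts in MAEL WT.

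Other transcription factors tied to EMT gave 4 genes past -2 and 0 past 2 among the 19 of 24 with enough counts, and a median of -0.96. The 4 were 21.1% of those genes, beside 5.64% of all genes past -2. This list too was chosen with earlier results of these data known, and the difference was not tested. ETS1 went from 21 to 0 counts, 6.05-fold lower with 3 counts taken for the 0 (interval limit -2.17). FOXQ1 had 273 and 29 counts and a log2 fold change of -2.98, and FOSL1, an AP-1 subunit, had 1320 and 254 and -2.16. TWIST2 was the other. FOXM1, a factor of the cell division cycle, was highest at 1.56 with 632 and 1616 counts, followed by TCF4 at 0.86 and TCF3 at 0.32. TCF4 had 18 and 29 counts, and with total counts the intervals of TCF4 and TCF3 included 0.

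**Figure D4:**
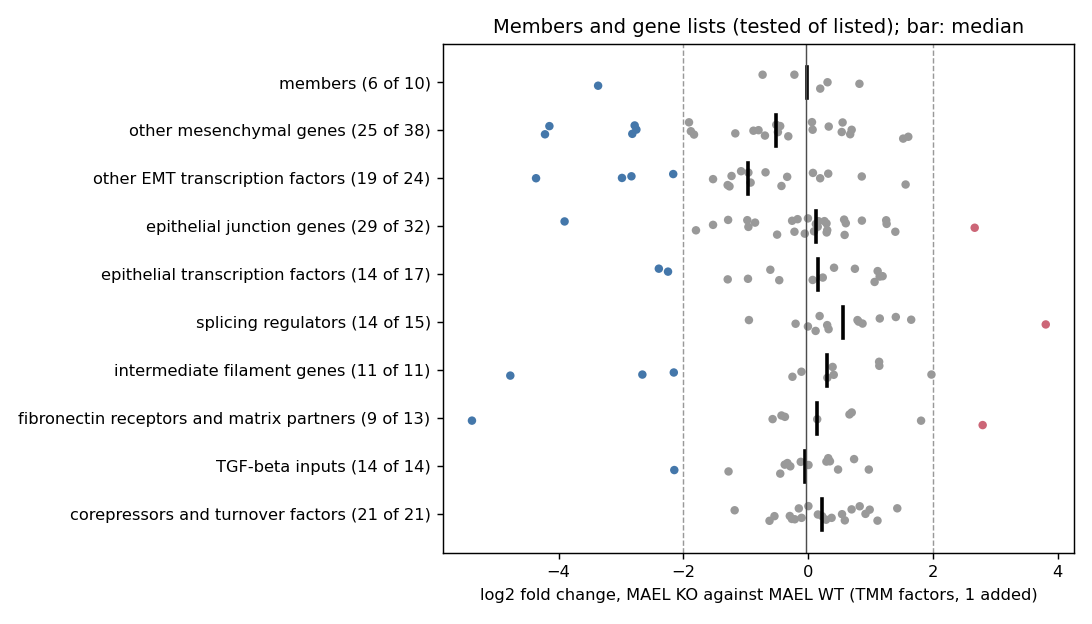
Log2 fold changes (TMM factors, 1 added) of the members and of 9 gene lists, 1 point per gene with at least 10 counts in a library; black bars are medians, the thin line is the median of all genes tested (-0.04), dashed lines mark -2 and 2, and coloured points lie past them. The lists of other mesenchymal genes and other EMT transcription factors have medians of -0.51 and -0.96, and the members themselves one of -0.01.

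Epithelial junction genes did not share a direction. Of 32 listed, 29 had enough counts, with 1 past 2 and 1 past -2 (3.45% each, beside 2.16% and 5.64% of all genes) and a median of 0.12, which was -0.15 with total counts. ST14, the protease matriptase, had 4 and 27 counts and stood at 2.67 (interval 1.44 to 4.94), and PKP2 was at 1.26. EPCAM was lowest, followed by CLDN7 at -1.80, with 224 and 55 counts, and SPINT1 at -1.52. SPINT1 had 12 and 3 counts and an interval of -4.25 to 0.10 that includes 0. Among claudins, which seal tight junctions, CLDN1 had 10858 and 22350 counts and a value of 1.25. CLDN3, CLDN4 and CLDN6 were lower in MAEL KO, as CLDN7 was, at -0.98, -1.28 and -0.96. CLDN6 had 10 and 4 counts and an interval that includes 0. Epithelial transcription factors other than GRHL2 gave 2 of 14 past -2, KLF4 at -2.39 and OVOL1 at -2.25, the latter with 15 and 2 counts and an interval of -5.87 to -0.59. These were 14.3% of the list, beside 5.64% of all genes, a difference that was not tested. HNF4A, a hepatocyte factor that also upholds epithelial character in liver, was at 1.15 with 2816 and 5391 counts.

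Among splicing regulators beside the ESRP proteins, 1 of 14 passed 2 (7.14%, beside 2.16% of all genes) and 0 passed -2 (beside 5.64%), with a median of 0.56. A single gene makes up that share. MBNL3 had 15 and 194 counts and stood at 3.81 (interval 3.15 to 4.77), and PTBP2 and HNRNPM were at 1.65 and 1.41. MBNL2 was lowest at -0.95. RBM47, another epithelial splicing factor, had 1715 and 1479 counts and an interval of -0.10 to 0.10 (-0.38 to -0.18 with total counts), and QKI, known for splicing in mesenchymal cells, was at -0.20.

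Proteins that work with vimentin and fibronectin were examined last. Of 11 intermediate filament and linker genes, 3 passed -2 (27.3%, beside 5.64% of all genes) and 0 passed 2 (beside 2.16%). KRT7 had 60 counts and 1, 0.0193 times the MAEL WT level (log2 interval -11.02 to -3.16). KRT19 had 13 counts and 1 (ratio 0.0890, interval -8.90 to -0.76), and DES had 14 and 2 (ratio 0.165, interval -5.78 to -0.47). None of the 3 reached 100 counts in a library, and among all genes that did, 2.35% passed -2. With 5 added, KRT7 was at -3.33, but KRT19 and DES were at -1.49 and -1.33, short of -2. The 27.3% thus rests on genes with few counts, and its difference from the share of all genes was not tested. The lamins LMNB1 and LMNB2 were highest, at 1.98 and 1.14. KRT8 was also at 1.14, with 12248 and 23308 counts, and KRT18 was at 0.41. Of 13 fibronectin receptors and matrix partners, 9 had enough counts, and 1 passed 2 and 1 passed -2 (11.1% each, a single gene, beside 2.16% and 5.64% of all genes). ITGA5 and ITGB1, which form the classical fibronectin receptor, were at -0.43 and -0.57, with 4349 and 2795 counts and with 18170 and 10582. FBLN2, a matrix protein that binds fibronectin, had 141 and 2 counts, 0.0164 times the MAEL WT level (log2 interval -8.99 to -4.05). TNS1 was highest at 2.80, followed by TGM2, a crosslinking enzyme, at 1.81 with 2786 and 8453 counts.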

How the data were processed

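The authors sequenced total RNA of MAEL WT and MAEL KO cells (Illumina HiSeq), 1 library each. The submitters' processing notes name HISAT2 2.0.5, featureCounts 1.5.0-p3 and build hg19. The gene identifiers and coordinates are those of GRCh38, with 58724 of 58735 genes placed as in GENCODE 29. The deposited counts are whole numbers of reads per gene without normalization, and the FPKM values were scaled by the authors per gene length and library size. Counts were normalized here with TMM factors (edgeR 4.0.16, DESeq2 1.42.0 for other size factors, R 4.3.3), and log2 fold changes were taken with 1 added, for genes with at least 10 counts in a library. Intervals are exact Clopper-Pearson (SciPy 1.17.1), and 3 counts, the floor, were 0.151 and 0.144 CPM. For a gene at 0 in 1 library, a fold is given with 3 counts taken for the 0. That fold leaves out the counting error of the other library. Intervals cover counting error only, since each group had 1 library. Reads carried no molecular identifiers, so amplification copies cannot be told apart and the intervals may be too narrow. The log2 threshold of 2 is the study's, whose p-value cutoff could not be applied without replicates. No edgeR or DESeq2 test was run for the same reason. The genes named are the members, their paralogues, CDH1, CDH2, EPCAM, KRT18, overlapping antisense genes, and up to 3 at each end of each list (a few of these are not reported here), plus a few chosen after their values were seen, such as CLDN1, RBM47 and QKI. Members and lists were chosen with earlier results of these data known. The formulas for folds and intervals were tested on simulated counts scaled by total counts. Changes were planted only in genes with at least 100 expected counts. TMM factors, folds with 3 counts taken for a 0 and ratios of 2 genes were not covered.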

Additional observations from a re-analysis of the deposited data

How the results depend on the processing

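With 1 library per group, no library could be left out. The count of members past 2 upwards was 0 under every alternative run. The count past -2 was 1, ESRP1, and became 0 with 5 added to the counts and 0 for genes with at least 100 counts, a filter that ESRP1 does not pass. No list median moved outside its binomial interval under any alternative, but with total counts 4 changed sign, to -0.15 for epithelial junction genes, -0.12 for epithelial transcription factors, -0.13 for fibronectin receptors and partners and -0.05 for corepressors and turnover factors. Of 576 values of 66 named genes, 41 left their counting interval, and the sign of 1 turned (SNAI1, total counts). Most of the 41 came from total counts, among them VIM, FN1, ESRP2, CDH1 and KRT18. These departures thus came mainly from the scaling between libraries. The check says little for a gene at 0 in MAEL KO, whose interval has no lower end. ESRP1 was at -6.56 with 0.1 added and at -1.52 with 5 added. Over all genes, 387 were higher and 1008 lower past the threshold. These were 250 and 513 with 5 added, 1029 and 1773 without a filter, 185 and 283 under the filter of 100 counts, and 1827 and 2951 at a threshold of 1. Higher genes made up 27.7% of those past it, but 17.0% with total counts, 36.7% without a filter, 39.5% with at least 100 counts and 38.2% at a threshold of 1. The number of counts limits SNAI2, ZEB2, TWIST1, GRHL2 and ESRP1 most.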

Other observations

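Upstream of the EMT factors, the 14 genes of TGF-beta input to them had a median log2 fold change of -0.06, with 1 past -2 and 0 past 2, beside 5.64% and 2.16% of all genes. TGFB2 had 60 counts in MAEL WT and 11 in MAEL KO, a log2 fold change of -2.15 (95% counting interval -3.31 to -1.30). TGFB1 had 1114 and 397 counts and a value of -1.28, and TGFB3 was at 0.48, with an interval of 0.11 to 0.86 that became -0.17 to 0.59 with total counts. The receptor gene TGFBR1 was at 0.97, with 722 and 1226 counts. Of 21 corepressors and turnover factors of SNAI and ZEB proteins, 0 passed the threshold in either direction, beside 7.8% of all genes. AJUBA, a LIM protein that binds SNAI1, was lowest at -1.18 with 4957 and 1893 counts, and SUV39H1 and HDAC1, which modify histones, were highest at 1.43 and 1.11.

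The genes that lie beside the members on the chromosome were compared with them, as the 5 nearest on each side with enough counts. The 10 neighbours of ZEB1 had a median log2 fold change of 0.59 and ranged from -0.80 to 1.45, beside the -0.73 of ZEB1 itself. Those of FN1 had a median of 0.60, beside -0.22 for FN1. Those of ESRP2 had a median of 0.00 and ranged from -0.40 to 1.14, beside 0.82, and those of VIM had a median of 0.11, beside 0.31. For SNAI1, 9 of 10 neighbours were below 0, with a median of -0.21, beside 0.19. Of all 17887 genes tested, 9294 were below 0. Among the neighbours of FN1, 2 were below 0, among those of ZEB1 4, and among those of VIM and ESRP2 5 each.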
